A study of Mus musculus with 8 samples.

Results

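Regulatory T cells are CD4+ T cells that restrain other immune cells. They are defined by the transcription factor Foxp3, carry the inhibitory receptor Ctla4 and the interleukin-2 receptor alpha chain Il2ra, and can release the suppressive cytokine Il10. In transplantation they are studied for their ability to limit the attack on a graft. Activated conventional T cells can also carry Ctla4, Il2ra and the costimulatory receptors Tnfrsf4 (OX40) and Icos, so these genes alone do not define a regulatory cell.

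The cells described here were picked from single-cell RNA-seq (Microwell-seq) tables by their raw UMIs (unique molecular identifiers, each counting 1 captured transcript). A cell passed with at least 500 UMIs and at most 10% of them mitochondrial. A T cell had at least 2 UMIs of Cd3d, Cd3e, Cd3g and Trac together. A gate member was a T cell with no UMI of Cd8a, Cd8b1, Csf1r (a macrophage receptor) or Cd79a (a B-cell receptor subunit) and fewer than 3 UMIs of 6 cycling genes. It also had to meet the gate condition, which was a Foxp3 UMI or at least 3 UMIs of the gate genes Foxp3, Ctla4, Tnfrsf4, Ikzf2 and Il2ra together. The gate held 98 of 47541 passing cells, 0.206% (95% exact binomial interval 0.167 to 0.251), out of 80000 barcodes. The condition uses measured values, so the levels of the 5 gate genes are given as a description.

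BALB/c hearts, livers and kidneys from mice 8 weeks old were placed in C57BL/6 recipients of the same age with no immunosuppression, the liver in its normal site and the heart and kidney elsewhere, and all samples were taken 7 days later. The labels give every sample as male, 8 weeks old and of strain BALB/c. Blood mononuclear cells (PBMC) and lymphocytes purified from the graft on a density gradient (TIL) were sequenced for heart, liver and kidney grafts, and cells of the solid organ (PC, parenchymal cells in the study's terms) for liver and kidney. Each of these 8 groups was 1 library, and the study's methods name 2 recipients per organ without saying which animals entered a library. Donor and recipient cells are not told apart in these tables, and no untreated or syngeneic library was analysed here.

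The libraries held 3418722 to 19171264 UMIs, with a median of 581 to 1501.5 UMIs per passing cell, and liver PC was the deepest. Organ marker genes ran against 2 labels. Levels are given as CPM, a gene's UMIs over all UMIs of the same cells, scaled to 1000000. Summed hepatocyte markers stood at 698 CPM in the library labelled heart TIL and 76.3 CPM in the one labelled liver TIL, while cardiomyocyte markers stood at 26.1 and 176 CPM. These libraries are therefore named by their labels, and no direction between organs is drawn from them. Pairs of libraries shared 123 to 617 barcodes, and 10 members had a barcode that another library also listed.

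Liver PC held 56 members, the library labelled heart TIL 18, kidney PBMC 12 and the library labelled liver TIL 8. Heart PBMC, liver PBMC, kidney PC and kidney TIL held 1 member each. Of all 20789 T cells, 614 met the gate condition, and 452 of these were left out for a Cd8 UMI, 20 for a Csf1r or Cd79a UMI and 44 for cycling genes. Members had a median of 1113 UMIs in liver PC, 911 in the library labelled heart TIL, 1466.5 in the one labelled liver TIL and 747 in kidney PBMC.

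Among T cells that passed the other requirements, the share that met the condition was higher without a Cd8 UMI than with one in liver PC, and in the other libraries the intervals of the 2 shares overlapped. In liver PC, 56 of 722 T cells with no Cd8 UMI (median 1175 UMIs) met it, 7.76% (5.91 to 9.95), against 128 of 2993 T cells with a Cd8 UMI (median 1338 UMIs), 4.28% (3.58 to 5.06). After every cell was thinned to 500 UMIs, the shares in liver PC were 1.91% (1.27 to 2.77) and 0.719% (0.394 to 1.20), and their intervals did not overlap. Thinning also removes UMIs that kept cells out, and 14 of the 27 liver PC cells in the gate after it were members before it. Of T cells labelled heart TIL, 1.11% (0.659 to 1.75) without and 0.938% (0.619 to 1.36) with a Cd8 UMI met it, and thinning gave 0.607% (0.304 to 1.08) and 0.215% (0.0586 to 0.549). The condition was met by 0.574% (0.248 to 1.13) of T cells without and 1.06% (0.648 to 1.63) with a Cd8 UMI in the library labelled liver TIL. The kidney PBMC shares were 12.2% (6.49 to 20.4) and 8.57% (4.88 to 13.7). Intervals cover counting error only.

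Over all libraries, cells with a Csf1r or Cd79a UMI and no T-cell UMI seldom met the condition. Among cells with a Csf1r UMI and no T-cell UMI, 3 of 2998 did, 0.100%. These were 2 of 664 such cells in liver PC, 0.301% (0.0365 to 1.08, median 1688 UMIs), and 1 of 30 in kidney PBMC. The kidney PBMC share was 3.33% (0.0844 to 17.2), an interval that overlaps those of the T cells there. Among cells with a Cd79a UMI and no T-cell UMI, 0 of 658 did, but 247 of these were in heart PBMC and 370 in liver PBMC, and liver PC held 21, where 0 cells allows a share of up to 14.3% (3 counts). The Foxp3 UMI taken alone was found in 26 of 4695 T cells with no Cd8 UMI, 0.554% (0.362 to 0.810), and in 44 of 9248 T cells with a Cd8 UMI, 0.476% (0.346 to 0.638). The 2 intervals overlapped. These sums pool libraries with different shares and include 374 and 292 T cells of heart PBMC, whose table does not list Foxp3. In liver PC the Foxp3 shares were 2.22% (1.27 to 3.57) without and 1.04% (0.705 to 1.47) with a Cd8 UMI, and 1 of 664 cells with a Csf1r UMI there had one, 0.151% (0.00381 to 0.836), an interval that overlaps that of the Cd8+ T cells.

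**Figure D1:**
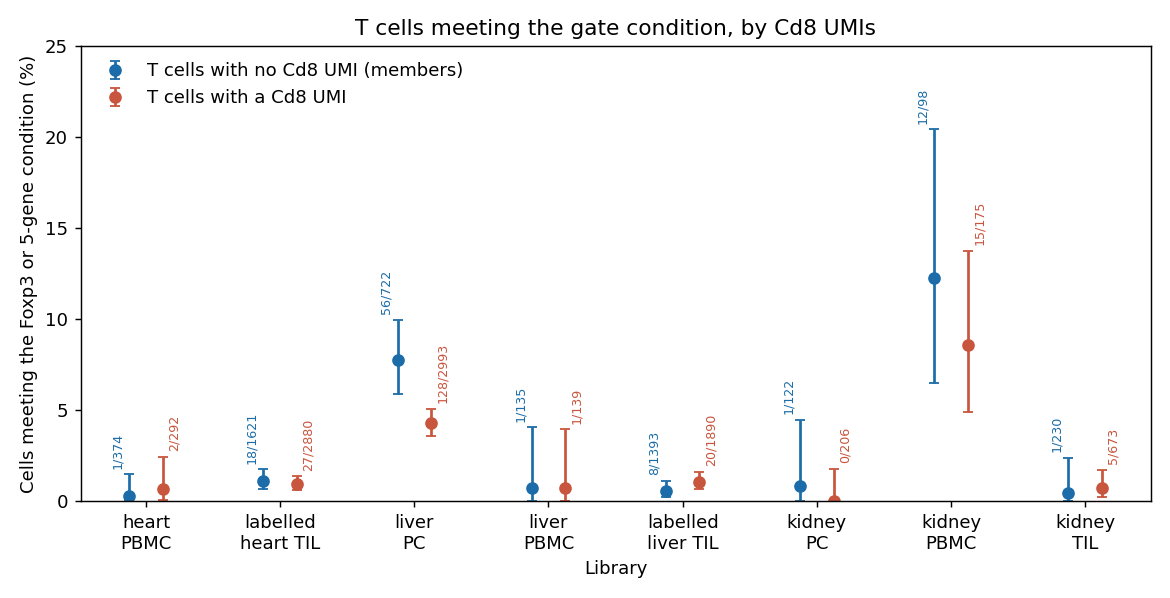
Share of T cells (%, y axis) that met the Foxp3 or 5-gene condition in each of the 8 libraries (x axis), for T cells with no Cd8 UMI (blue, the gate members) and with a Cd8 UMI (red). Bars are 95% exact binomial intervals and the fractions give the cells. Liver PC stands at 56/722 against 128/2993, and kidney PBMC has the highest shares on few cells.

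Foxp3, on chromosome X (7573644 to 7595245 in GRCm38), had a UMI in 26 of the 98 members, 26.5% (18.1 to 36.4). Of these, 16 were in liver PC, 5 in the library labelled heart TIL and 1 in each of 5 other libraries. The gene is not listed in the heart PBMC table. The Foxp3 UMI was the sole ground for 18 members, 8 members met both conditions, and all 8 were in liver PC. The other 72 members entered by the 5-gene sum alone. Of these, 36 sat at exactly 3 UMIs, and 94 cells that passed every other requirement sat just outside with a sum of 2.

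Ctla4 and Tnfrsf4 carried most of the sum. Ctla4 had a UMI in 69 members and Tnfrsf4 in 52, while Il2ra was found in 18 and Ikzf2 (Helios, a transcription factor of many regulatory T cells) in 11. Among the 72 members with no Foxp3 UMI, Ctla4 alone reached 3 UMIs in 32 and Tnfrsf4 alone in 13.

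The libraries differed in which genes brought cells in. In liver PC the members summed to 21 Foxp3, 117 Ctla4, 70 Tnfrsf4, 10 Ikzf2 and 12 Il2ra UMIs. Members labelled heart TIL summed to 5 Foxp3, 19 Ctla4, 26 Tnfrsf4, 0 Ikzf2 and 5 Il2ra UMIs. In kidney PBMC Ctla4 stood nearly alone, with 45 UMIs beside 1 Foxp3 and 1 Tnfrsf4 UMI, and 11 of its 12 members had entered by Ctla4 alone. The 8 members labelled liver TIL held 16 Tnfrsf4, 7 Ctla4, 4 Il2ra and 1 Foxp3 UMIs.

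Cd4 was not part of the gate, and 22 of 98 members had a Cd4 UMI, 22.4% (14.6 to 32.0), of which 19 were in liver PC, 2 in the library labelled liver TIL, 1 in kidney PBMC and 0 of 18 in the library labelled heart TIL. Foxp3 and Cd4 UMIs were found together in 3 members, all of liver PC. Cd4 stood at 398 CPM in liver PC members (exact Poisson interval 267 to 572) and at 0 in the 18 members labelled heart TIL, where 3 UMIs would be 156 CPM. Against liver PC Cd8+ T cells that met the same condition, Cd4 was 3.47 times as high in members (2.01 to 5.99, counting error only, 29 and 30 UMIs).

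Of the 7 genes given as markers of the cells, Il10, Maf and Izumo1r were not used by the gate. Il10 had a UMI in 19 members, Maf (a transcription factor that drives Il10) in 28 and Izumo1r (folate receptor 4, found on many regulatory T cells) in 19, and 49 members had at least 1 of the 3. Among members with a Foxp3 UMI, 10 of 26 had 1 of them, and among members without, 39 of 72. In liver PC at least 1 of the 3 was found in 57.1% of members, 47.1% of Cd4+ T cells outside the gate and 49.2% of Cd8+ T cells that met the condition, and in the library labelled heart TIL in 44.4%, 30.4% and 40.7%. The same shares were 37.5%, 12.5% and 30.0% in the library labelled liver TIL and 41.7%, 28.6% and 6.67% in kidney PBMC, on 8 and 12 members. In all T cells outside the gate with no Cd8 UMI they were 24.9% in liver PC, 8.92% and 8.30% in the libraries labelled heart TIL and liver TIL, and 14.0% in kidney PBMC. Members thus had the highest share in each of these 4 libraries, on few cells and at unequal depth. Median UMIs of members and Cd4+ T cells outside the gate were 911 and 766 in the library labelled heart TIL. They were 1466.5 and 813.5 in the one labelled liver TIL, 1113 and 1170 in liver PC and 747 and 903 in kidney PBMC. Per UMI the 3 genes summed to 1043 CPM (822 to 1306) in members against 551 (390 to 756) in liver PC. In the library labelled heart TIL the order turned, at 778 (436 to 1284) against 1001 (603 to 1563). Since many comparison cells held the markers too, the cells are called gate members here. Undetected Foxp3 or Cd4 UMIs do not show that a cell lacks the gene at this depth.

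Single members held different parts of the pattern. The liver PC member with the most Foxp3 UMIs (3 of 2759 UMIs in all) also held 3 Cd4, 10 Il10, 2 Maf, 2 Izumo1r and 4 Icos UMIs, 2 of Tnfrsf4 and 1 of Ikzf2, but 0 of Ctla4 or Il2ra. The member with the highest 5-gene sum, 16, was a liver PC cell with 1 Foxp3, 12 Ctla4, 3 Tnfrsf4, 2 Cd4 and 6 Tnfrsf18 UMIs and 0 of Maf, Icos, Ikzf2 or Il2ra. At the other end, a liver PC member with 2 Foxp3 UMIs held no UMI of the other gate genes, 93 S100a8 and 100 S100a9 UMIs, genes of neutrophils, among 1291 in all.

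**Figure D2:**
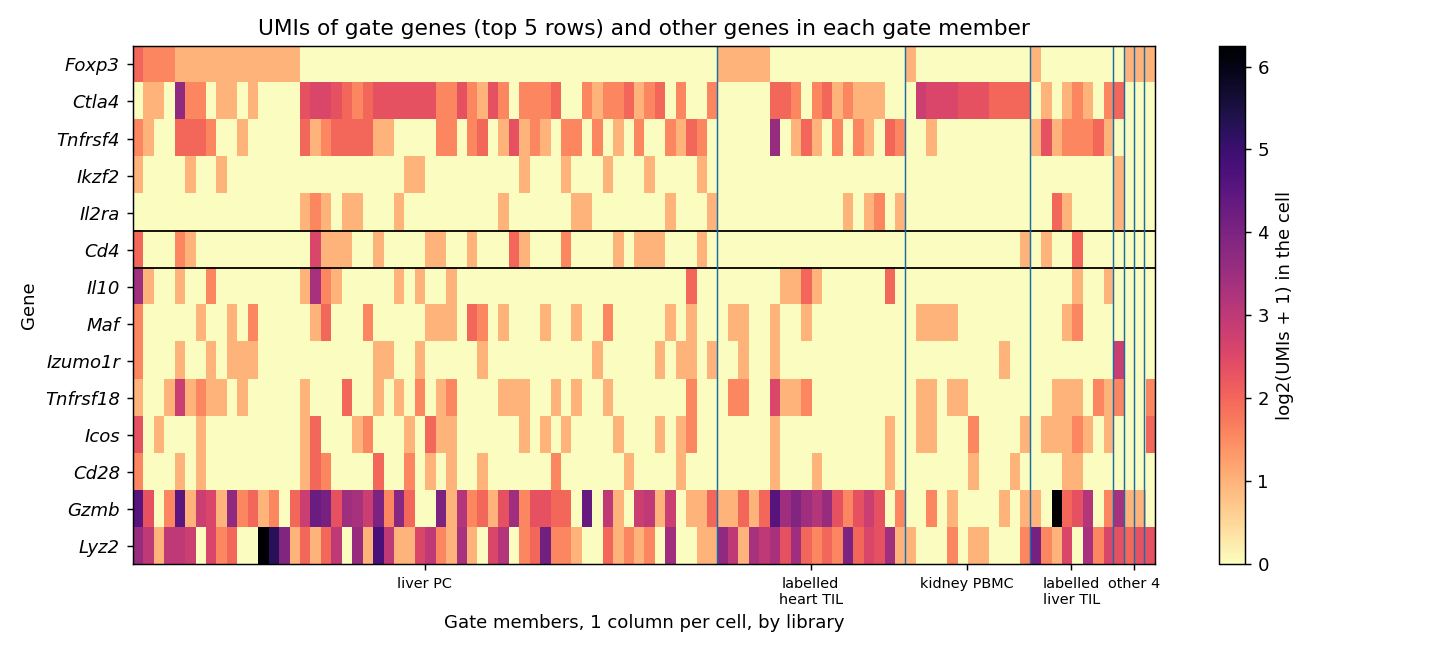
UMIs of 14 genes (y axis) in each of the 98 gate members (x axis, 1 column per cell, grouped by library), coloured by log2(UMIs + 1). The top 5 rows are the gate genes, then Cd4 and genes outside the gate; Foxp3 is filled in 26 columns, Ctla4 fills 11 of the 12 kidney PBMC columns, and Gzmb has a UMI in 78 members.

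The members were next compared with the 113 Cd4+ T cells outside the gate. These were T cells with at least 1 Cd4 UMI that failed the gate condition. Members did not need a Cd4 UMI, and 19 of 56 in liver PC and 0 of 18 in the library labelled heart TIL had one. The 2 populations thus also differ in how Cd4 was used to pick them. Libraries with 10 cells of each kind were liver PC (56 members, 51 comparison cells) and the library labelled heart TIL (18 and 23). UMIs were summed per library and population and tested with edgeR's quasi-likelihood test with library as a block, and 20 genes that chose the cells were left out of the test. Each library holds 1 sample of its kind, so the p-values rest on 2 pairs of sums from libraries of different compartments. Hepatocyte markers stood at 358 CPM in liver PC and 698 CPM in the library labelled heart TIL. Whether these 2 libraries share animals is not known, so the 2 pairs may not be independent.

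In the gate genes, as the rule demands, members stood above these cells. In liver PC, Foxp3 was 288 CPM (178 to 441) in members and 0 of 51 comparison cells had a UMI, Ctla4 was 1606 (1328 to 1925) against 362 (234 to 535), and Tnfrsf4 961 (749 to 1214) against 130 (59.6 to 248). For the library labelled heart TIL, Ctla4 was 986 CPM (594 to 1540) against 158 (32.6 to 462), and Tnfrsf4 1349 (881 to 1977) against 263 (85.5 to 615).

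Few genes outside the gate were called with these 2 pairs of sums. Of 1456 genes tested, 2 were called at an adjusted p below 0.05 (0.137%), 1 higher and 1 lower in members (0.0687% each). At an unadjusted p below 0.05, 27 were higher (1.85%) and 24 lower (1.65%). The higher gene was Gcg, the pancreatic hormone glucagon (adjusted p = 1.25e-07), with 3 UMIs in liver PC members, 37 in the members labelled heart TIL and 0 in the comparison cells. All 37 came from 1 cell of 1791 UMIs. The lower gene was Arg1, the arginase of alternatively activated macrophages, with a log2 fold change of −2.72 ± 0.67 (SE, adjusted p = 0.0419). A single cell held 11 of its 13 UMIs in the comparison cells labelled heart TIL, and another 8 of 13 in liver PC. With each gene's highest cell left out of the sums, neither kept enough UMIs to be tested.

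Il10 was the marker outside the gate with the largest difference. In liver PC it had 33 UMIs in 12 of 56 members and 8 UMIs in 5 of 51 comparison cells, 453 CPM (312 to 636) against 116 (50.1 to 228), a ratio of 3.91 (1.77 to 9.79). The library labelled heart TIL had 9 Il10 UMIs in both populations, 467 CPM (214 to 886) against 474 (217 to 900), a ratio of 0.985 (0.346 to 2.80). The 8 members labelled liver TIL had 2 UMIs and kidney PBMC members 0. Over both libraries the log2 fold change of Il10 was 1.18 ± 0.43, with an adjusted p = 0.765, and it passed an unadjusted 0.05.

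In liver PC members, 2 cells held 10 and 9 of the 33 Il10 UMIs. Maf stood at 371 CPM (244 to 539) in liver PC members and 232 (133 to 377) in the comparison cells, and at 208 (56.5 to 531) and 211 (57.4 to 540) in the library labelled heart TIL, with a log2 fold change of 0.53 ± 0.46 (adjusted p = 0.998). Izumo1r was 220 (126 to 357) against 203 (111 to 340) in liver PC and 104 (12.6 to 375) against 316 (116 to 688) in the library labelled heart TIL, at −0.27 ± 0.52 (adjusted p = 0.998). For Maf and Izumo1r the intervals of members and comparison cells overlapped in each of the 2 libraries.

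None of the regulatory T cell genes tested was called. Of 28 listed genes outside the gate 8 were tested, 7 had a log2 fold change above 0 (718 of all 1456 genes did), and their median was 0.72, against −0.0035 over all genes. Summed, the 28 genes came to 3555 CPM (3135 to 4015) in members against 2131 (1800 to 2504) in liver PC, to 2335 (1703 to 3124) against 1897 (1328 to 2626) in cells labelled heart TIL, to 4406 (3310 to 5749) against 2350 (1761 to 3074) in cells labelled liver TIL and to 2203 (1380 to 3335) against 2444 (1448 to 3862) in kidney PBMC. Intervals of the 2 populations did not overlap in liver PC and the library labelled liver TIL and overlapped in the other 2. They cover counting error only, and the members labelled liver TIL held 54 of these UMIs in 8 cells. Batf, a transcription factor of effector regulatory cells, was at 1.13 ± 0.42 (adjusted p = 0.819), and Tnfrsf18 (GITR, a costimulatory receptor abundant on regulatory T cells) at 0.79 ± 0.39 (adjusted p = 0.998). Icos stood at 0.89 ± 0.52 and Capg, an actin-capping protein, at 0.61 ± 0.35, both at an adjusted p = 0.998.

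No list had a called member in that comparison. Of chemokine receptors and residency genes 6 of 15 were tested, all 6 above 0 with a median of 0.70, and the chemokine receptor Ccr2 had the smallest p (1.14 ± 0.52, adjusted p = 0.998). Of 13 cytotoxic genes 8 were tested with a median of 0.030, and Gzmb, the protease of killer lymphocytes, was at 0.30 ± 0.18. Gzmb had a UMI in 78 of the 98 members. Th2 and Th17 genes were too sparse for any to be tested, and Th1 genes had a median of 0.15 over 3 tested.

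With libraries of at least 5 cells of each kind, which added kidney PBMC (12 and 7 cells) and the library labelled liver TIL (8 and 24), 0 of 1850 genes were called, with 33 higher (1.78%) and 28 lower (1.51%) at an unadjusted p below 0.05. DESeq2 called 0 as well. The smallest adjusted p, 0.113, was shared by Gzmb at 0.81 and Arg1 at −2.74, and without liver PC Gzmb was called at 1.32 (adjusted p = 0.00112, with a range of 0.00112 to 0.999996 over 16 alternatives). The library labelled liver TIL had 93 Gzmb UMIs in 8 members and 28 in 24 comparison cells, and 1 member of 2808 UMIs held 75 of the 93. With a minimum of 1000 UMIs for both populations, which left 51 members, 49 comparison cells and 3 libraries without kidney PBMC, Gzmb (1.22) and Il10 (3.35, adjusted p = 0.0201) were called higher.

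**Figure D3:**
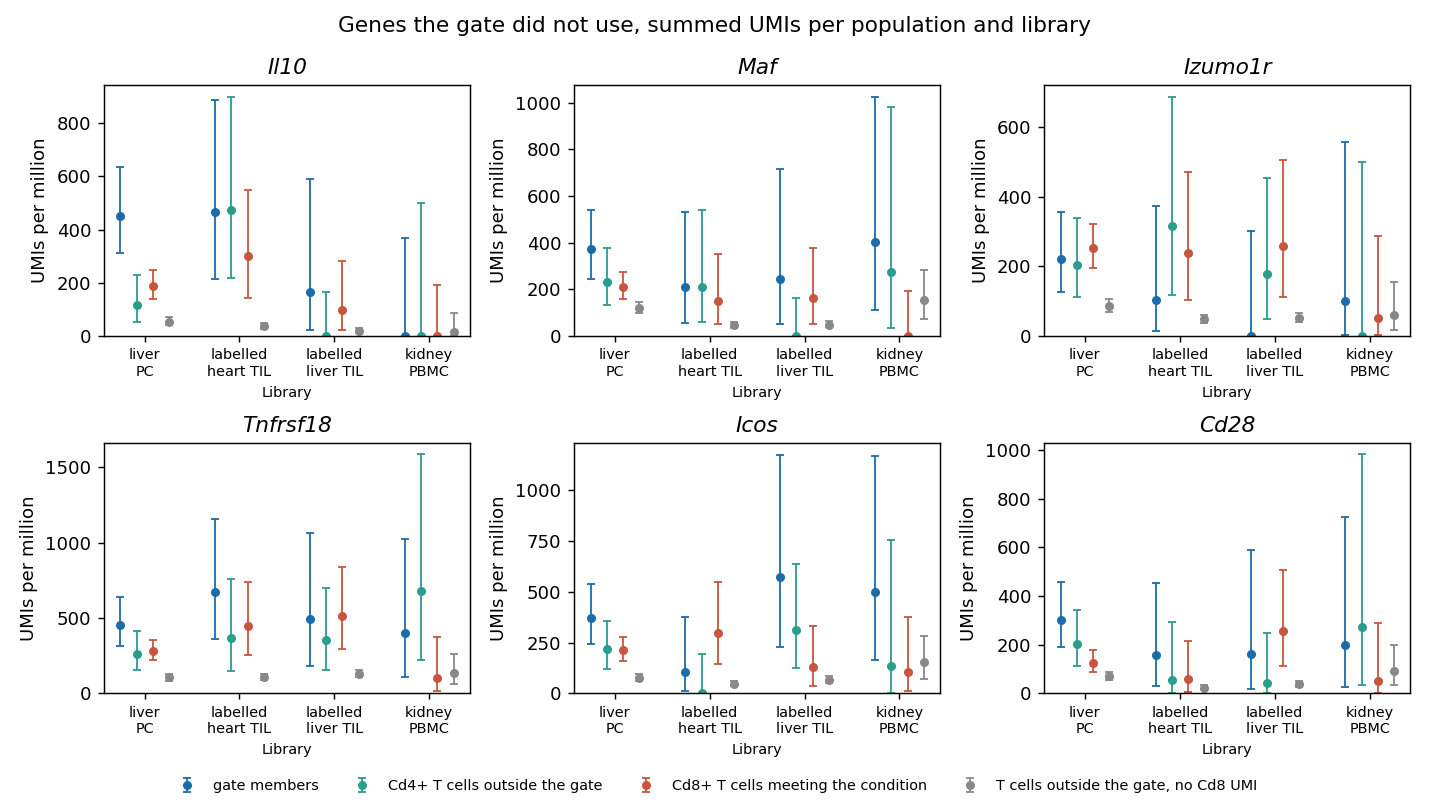
Summed CPM (y axis) of 6 genes the gate did not use, in 4 libraries (x axis), for gate members, Cd4+ T cells outside the gate, Cd8+ T cells that met the condition, and all T cells outside the gate with no Cd8 UMI. Bars are exact Poisson intervals; Il10 in liver PC is 453 in members, 116 in Cd4+ T cells outside the gate and 52.5 in all T cells outside it with no Cd8 UMI.

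Cd4 UMIs are sparse, so members were also set against all T cells outside the gate that had no Cd8 UMI and passed the other requirements. This comparison used liver PC, kidney PBMC and the library labelled heart TIL, with 86 members and 2355 other T cells. Of 6053 genes tested 70 were called (1.16%), 4 higher (0.0661%) and 66 lower (1.09%), and at an unadjusted p below 0.05 there were 36 higher (0.595%) and 496 lower (8.19%). The 4 higher genes were the cytokine Il10 and the costimulatory receptors Tnfrsf18, Cd28 and Icos. They include 3 neighbours of gate genes in the genome: Cd28 (60716800 to 60773359) and Icos (60977927 to 61000320) lie on either side of Ctla4 on chromosome 1, and Tnfrsf18 lies next to Tnfrsf4 on chromosome 4 (GRCm38, GENCODE M21).

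Il10, on chromosome 1 (131019845 to 131024974), had the largest fold of the 4, with a log2 fold change of 2.85 ± 0.45 (adjusted p = 1.03e-06). It had 33 member UMIs against 47 in the other T cells of liver PC, 453 CPM against 52.5. Cells labelled heart TIL had 9 against 47, 467 CPM against 35.4. Kidney PBMC had 0 against 1, so the call came from the 2 graft libraries. Tnfrsf18 was higher in all 3, at 1.75 ± 0.39 (adjusted p = 0.00162), with ratios of 4.31 (2.81 to 6.48) in liver PC, 6.21 in the library labelled heart TIL (13 against 144 UMIs) and 2.92 (0.658 to 10.5) in kidney PBMC.

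Cd28, the main costimulatory receptor of T cells, was at 1.73 ± 0.49 (adjusted p = 0.0405), with 22, 3 and 2 member UMIs in liver PC, the library labelled heart TIL and kidney PBMC. Icos was at 1.61 ± 0.43 (adjusted p = 0.0219), with 27, 2 and 5. Both were higher in members in each of the 3 libraries. The 4 calls were lost without liver PC. Without it 0 genes were higher and 28 lower, and the folds of Il10 (2.998, adjusted p = 0.178) and Tnfrsf18 (1.78, adjusted p = 0.196) were about as large as with it. Cd28 then stood at 1.42 and Icos at 0.88 (both adjusted p = 0.964). Without the library labelled heart TIL, Il10 alone was called higher (2.86, adjusted p = 0.000835), with 2 genes lower. Without kidney PBMC all 4 were called among 5 higher and 31 lower genes, and Klrd1, a lower gene described next, missed the threshold (adjusted p = 0.0619). Icos and Cd28 were also not called with DESeq2 (adjusted p = 0.154 and 0.158), without the library block or without each gene's highest cell. Tnfrsf18 was not called without the block (adjusted p = 0.173), and Il10 was not tested without its highest cells.

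Maf was at 1.29 ± 0.42 (adjusted p = 0.136) and Izumo1r at 0.92 (adjusted p = 0.604), so of the 3 markers outside the gate 1 was called. Maf passed the threshold with 2 of 10 alternatives, DESeq2's size factors (adjusted p = 0.0169) and filterByExpr (adjusted p = 1.05e-05). Of 28 regulatory T cell genes 16 were tested, 2 were called higher and 0 lower, with a median of 0.61 against −0.40 over all genes. Another scaling (DESeq2's size factors) moved the median of all genes to −0.16, and with it 10 genes were higher and 60 lower. With edgeR's filterByExpr, which left 1126 genes, the median was −0.017 and 49 genes were higher and 86 lower.

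The 66 lower genes included markers of other cell types. Among them were 6 of 9 tested neutrophil markers, 2 of 5 tested macrophage and monocyte markers, 2 of 4 plasma cell markers, 2 of 3 dendritic cell markers, 2 of 7 NK cell markers and 1 of 2 erythroid markers. Il1b, an inflammatory cytokine of myeloid cells, fell by 2.09 on the log2 scale (adjusted p = 9.43e-06), and S100a9 was at −1.59 (adjusted p = 1.2e-05). Lyz2, lysozyme of myeloid cells, was at −1.61 (adjusted p = 1.66e-05) and Igkc, the immunoglobulin kappa constant region, at −1.83 (adjusted p = 1.74e-05). The chemokine Cxcl10 was at −2.71, with 6 against 314 UMIs in liver PC and 0 against 260 in the library labelled heart TIL. Genes of lymphocytes also fell, with Klrd1 (CD94, an NK-cell receptor subunit) at −2.37 (adjusted p = 0.000399) and Gzma, a granzyme, at −1.22 (adjusted p = 0.0036). No UMI of Chil1, a gene of neutrophils, was found in members, against 109 UMIs in the other T cells of liver PC, 90 in those labelled heart TIL and 8 in kidney PBMC. These counts set 86 members against 2355 other T cells, so 0 UMIs in members gives an upper limit only. In members 3 UMIs would be 41.2 CPM in liver PC, 156 in the library labelled heart TIL and 300 in kidney PBMC.

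Summed marker levels show the same split. In liver PC all 9 neutrophil markers were found in both populations and came to 7274 CPM in members against 20597 in the other T cells, and in the library labelled heart TIL to 4670 against 9072. Macrophage and monocyte markers came to 7961 against 16854 and to 12349 against 22584. In kidney PBMC neutrophil markers came to 35943 against 48462. Cd4+ T cells outside the gate stood nearer to members in liver PC, at 6392 CPM of neutrophil and 7464 of macrophage and monocyte markers. Theirs were 6269 and 15330 in the library labelled heart TIL, and neutrophil markers 16834 in kidney PBMC. Marker UMIs of myeloid cells were thus lower in members than in this comparison population. Against Cd4+ T cells outside the gate the direction varied by library. Neutrophil markers were higher in members in liver PC and kidney PBMC and lower in the library labelled heart TIL. In kidney PBMC the intervals did not overlap (32321 to 39860 CPM in members, 14002 to 20071 in Cd4+ T cells outside the gate). The part of these marker UMIs in the 4 higher genes was not tested.

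The next comparison kept the condition and changed the Cd8 requirement: members against T cells with a Cd8 UMI that met the same condition, over the same 3 libraries (86 and 170 cells). It was added after the values had been seen. Of 2590 genes 3 were called (0.116%), 1 higher (0.0386%) and 2 lower (0.0772%), and at an unadjusted p below 0.05 there were 39 higher (1.51%) and 70 lower (2.7%). Lilrb4a, an inhibitory receptor of the leukocyte immunoglobulin-like family that myeloid cells also carry, was higher in all 3 libraries, by 1.67 ± 0.37 (adjusted p = 0.0083), with 42 against 47 UMIs in liver PC, 12 against 8 in the library labelled heart TIL and 5 against 1 in kidney PBMC. Myeloid markers lay above 0 in the same comparison, with 5 of 5 tested neutrophil markers (median 0.62) and 4 of 4 tested macrophage and monocyte markers (median 0.66), none of them called. Of all 2590 genes 1146 lay above 0, with a median of −0.070. Summed neutrophil markers came to 7274 against 5403 CPM in liver PC, 4670 against 3592 in the library labelled heart TIL and 35943 against 15010 in kidney PBMC, and their part in the Lilrb4a call was not tested.

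Klrd1 was lower, at −2.15 ± 0.47 (adjusted p = 0.0083), with 8 against 122 UMIs in liver PC, 3 against 20 in the library labelled heart TIL and 0 against 5 in kidney PBMC. Ccl4, a chemokine of activated CD8 and NK cells, was lower at −0.97 ± 0.23 (adjusted p = 0.0226), with 145 against 922, 37 against 136 and 0 against 2 UMIs. Cytotoxic genes leaned the same way: of 11 tested, 1 was above 0, 2 were called lower and the median was −0.54, against −0.070 over all genes. Gzmb was at −0.54 ± 0.20 (adjusted p = 0.899). Ccl4 was not called without the library labelled heart TIL (−0.84, adjusted p = 0.250) or without liver PC (−1.09, adjusted p = 0.0504). None of the 3 genes was called with DESeq2 or without the library block. Without each gene's highest cell the adjusted p was 0.0537 for Lilrb4a and 0.0760 for Klrd1, and 0 genes were called.

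None of the regulatory markers outside the gate separated members from these Cd8+ cells by the test. Maf was at 0.94 ± 0.40 (adjusted p = 0.99998), Izumo1r at −0.30 ± 0.44 and Tnfrsf18 at 0.71 ± 0.35, and Il10 was left out because kidney PBMC had no UMI in either group. In liver PC alone Il10 was 2.42 times as high in members (1.51 to 3.84, counting error only), and in the library labelled heart TIL 1.56 times (0.561 to 4.27). The liver PC members of 2759 and 2313 UMIs held 10 and 9 of the 33 Il10 UMIs there. Of 28 regulatory T cell genes 8 were tested, 6 were above 0 (1146 of all 2590 genes were) and the median was 0.51. Summed, the 28 genes came to 3555 CPM (3135 to 4015) in members against 2251 (2072 to 2440) in liver PC. In the library labelled heart TIL they came to 2335 (1703 to 3124) against 2664 (2139 to 3278). Without liver PC, Lilrb4a stood at 1.81 (adjusted p = 0.629) and Klrd1 at −2.21 (adjusted p = 0.607), and the 4 genes then called higher were Chil3, Ctss, S100a8 and S100a9, which are genes of myeloid cells.

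**Figure D4:**
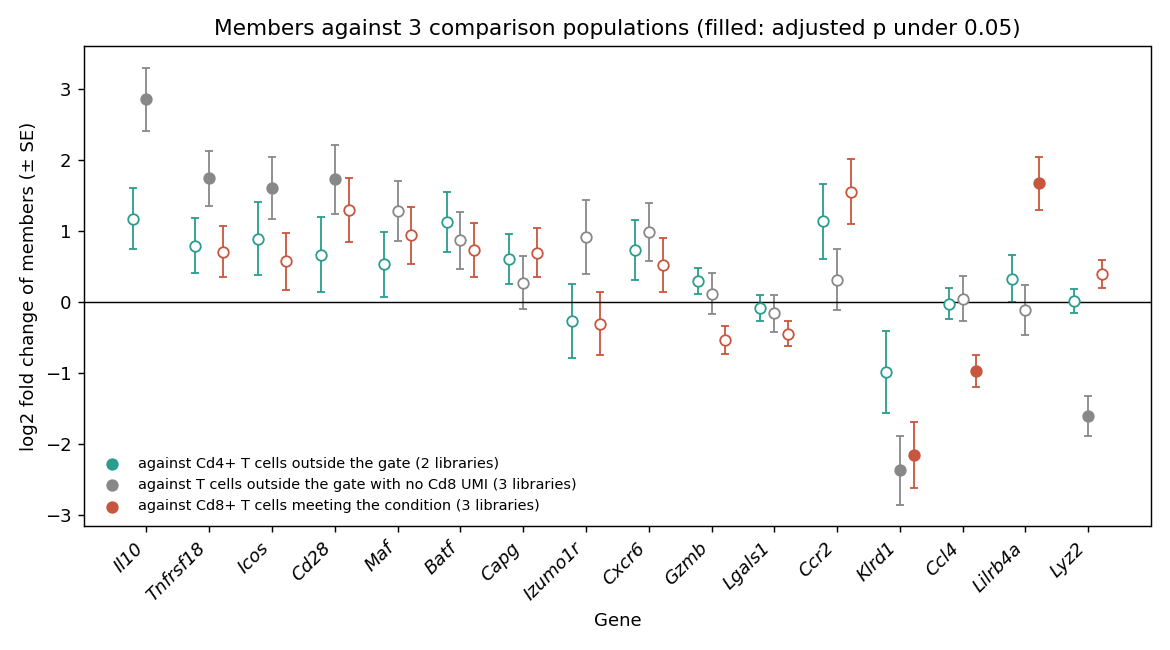
Log2 fold changes of gate members (y axis, ± SE) for 16 genes (x axis) against Cd4+ T cells outside the gate (green), all T cells outside the gate with no Cd8 UMI (grey) and Cd8+ T cells that met the condition (red); filled points have an adjusted p below 0.05. Il10 stands at 1.18 and 2.85 in the first 2 comparisons and Klrd1 at −2.15 in the last.

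Members with and without a Foxp3 UMI were then set side by side. Liver PC alone had 10 of each kind (16 and 40), so the test was run with at least 5 of each, which added the library labelled heart TIL (5 and 13). Of 765 genes 14 were called (1.83%), 10 higher in Foxp3+ members (1.31%) and 4 lower (0.523%), and at an unadjusted p below 0.05 there were 36 higher (4.71%) and 16 lower (2.09%). No regulatory T cell gene was among them: of 28 listed 6 were tested, 0 were called and their median was 0.42. Il10 was at 0.15 and Maf at −0.24 (both adjusted p = 0.999).

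The 10 higher genes were mostly genes of myeloid and antigen-presenting cells: S100a8, S100a9, Retnlg and Cxcl2 of neutrophils, Lyz2 and Apoe of macrophages, the ferritin heavy chain Fth1, and Cd74, H2-Aa and H2-Eb1 of the MHC class II pathway. S100a9 was higher by 2.06 (adjusted p = 6.33e-06), with 131 UMIs in 16 Foxp3+ and 62 in 40 Foxp3- liver PC members, 5834 against 1230 CPM. The liver PC member described above held 100 of those 131. Apoe was higher by 1.81 (adjusted p = 0.000689), with 21 against 18 UMIs in liver PC, spread over 10 and 12 cells, and 18 against 11 in the library labelled heart TIL.

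The 4 lower genes were Ccl4, Ms4a4b, Ppia and Gcg. Ccl4 was lower by 2.65 on the log2 scale (adjusted p = 8.54e-07), with 9 against 136 UMIs in liver PC and 2 against 35 in the library labelled heart TIL. Ms4a4b, a membrane protein of T cells, was at −1.80 (adjusted p = 0.000689), with 13 UMIs in 8 of 16 Foxp3+ and 123 in 34 of 40 Foxp3- liver PC members. With each gene's highest cell left out, Apoe, Fth1 and Ccl4 were called. DESeq2 called 0. The condition demanded 3 UMIs of the other 4 gate genes from Foxp3- members and 1 UMI of Foxp3 from the others.

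**Figure D5:**
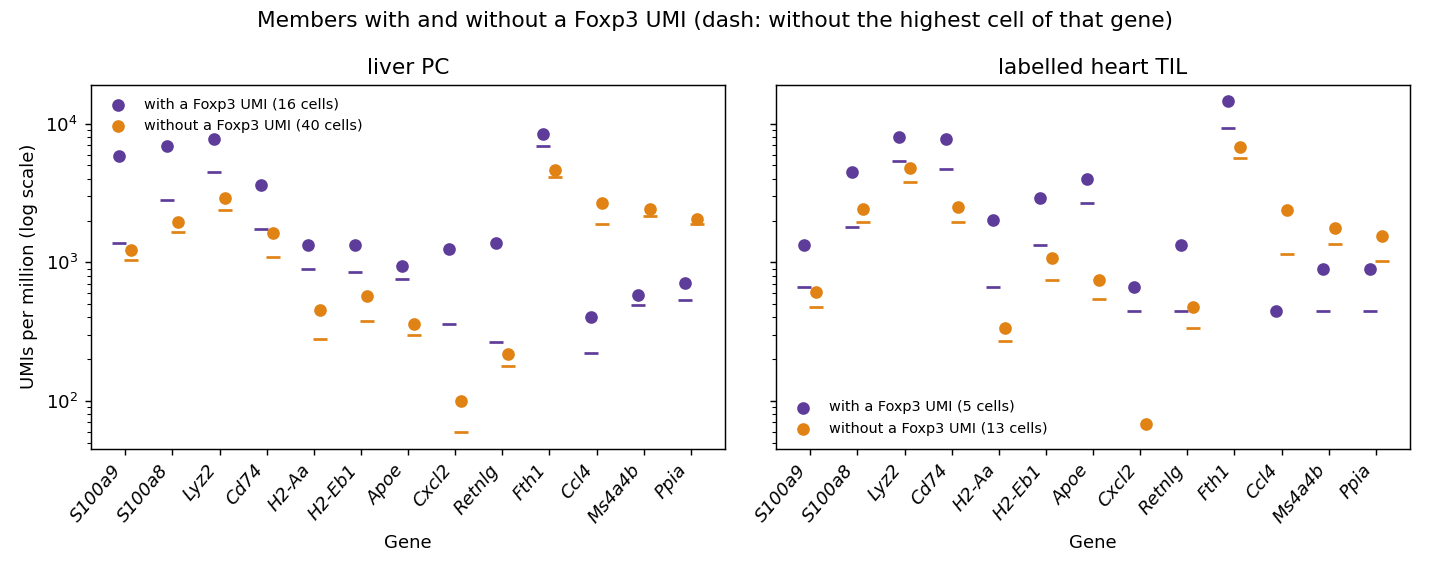
CPM (y axis, log scale) of the called genes other than Gcg (x axis) in members with (purple) and without (orange) a Foxp3 UMI, in liver PC (left) and the library labelled heart TIL (right). Dashes give the level without the cell that held most of that gene and are missing where nothing was left; S100a9 in liver PC is 5834 against 1230, and most of that gap rests on 1 cell.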

How the data were processed

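Each of the 8 libraries was 1 deposited table of 10000 barcodes holding raw UMI counts per gene, which the authors made with STAR and the mouse genome GRCm38 (their methods name STAR 2.5.2a and the annotation release 88). The submitters' processing notes also name bcl2fastq. How the barcodes were chosen and whether a library pools animals are not given in the sources used here, and no doublet caller was run here. Libraries held 3418722 to 19171264 UMIs.

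From these counts, cells were gated as described and summed per library and population. Sums were tested with edgeR 4.0.16 (R 4.3.3; TMM, robust quasi-likelihood test, library as a replicate block) and Benjamini-Hochberg adjustment over all genes tested, with DESeq2 1.42.0 as an alternative. SEs are the log2 fold change over the root of its F statistic. A gene needed 20 summed UMIs and a UMI in 3 libraries, or in all where fewer were used. The 20 genes that chose members or comparison cells, Cd4 among them, stayed in the library sizes and were not tested. Libraries needed 10 cells of each population. With library as a block, the variation used is that of the difference between populations among libraries of different organ labels or compartments. The test shares estimates of this variation across genes. With so few pairs of sums, a gene's p-value thus rests on other genes too, and not only on its own variation among libraries. Every condition has 1 library, so the p-values do not measure the spread between animals. The interaction of gate and compartment was planned for members and Cd4+ T cells outside the gate. It was not run because no blood library had 10 cells of both. The split by Foxp3 had 1 library at that minimum and was tested at 5 cells, a change made after the data were seen. Both blocked and unblocked fits were run.

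The members, the 30 gene lists and the tests were chosen with earlier results of these data known. Named genes were the gate genes and label markers, and genes taken from the following sets. These were the 15 highest and 15 lowest called genes with 1 direction in all libraries but at most 1, and the 5 smallest p of the Foxp3 split. List members that were called or among the 4 with most UMIs were a further set. Not every gene of these sets was named, and Il1b, lower against all T cells outside the gate with no Cd8 UMI, was in none of them. Gcg, Cxcl10 and the genes of single cells were in part chosen after their values were seen. Intervals are 95% exact binomial, Poisson or conditional intervals of counts (scipy 1.17.1, Python 3.11.15) and cover counting error only. Thinning drew 500 UMIs per cell and left out shallower cells. The test scripts were tested on simulated data. Gene positions come from GENCODE M21 on GRCm38.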

Additional observations from a re-analysis of the deposited data

How the results depend on the processing

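Each condition had 1 library, so the tests had 2 to 4 pairs of sums, and at a median of 747 to 1466.5 UMIs per member most genes were found in few cells. Other gates held 56 members (at least 1000 UMIs per cell), 26 (a Foxp3 UMI alone), 22 (a Cd4 UMI required) and 52 (after thinning to 500 UMIs). The cause of the changes below was not tested.

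Against Cd4+ T cells outside the gate, 1 gene was higher and 1 lower. Both counts were 0 with filterByExpr, with DESeq2, without the replicate block, without each gene's highest cell, and with at least 5 cells per library. The lower count was 0 with DESeq2's size factors, with no filter on low counts and with comparison cells matched on UMIs, and 4 for members without a Foxp3 UMI. With all T cells outside the gate that had no Cd8 UMI, the counts were 4 and 66 and Izumo1r turned to 0.92. A minimum of 1000 UMIs, Foxp3 alone, a Cd4 UMI in both populations and leaving out each library could not be tested at 10 cells, since 1 library or none was left. The same holds without the libraries labelled heart TIL and liver TIL.

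With at least 5 cells per library, 0 genes were called. With no filter 1 was higher, from 1000 UMIs 2 were higher, with Foxp3+ members alone 2 were lower, and with Foxp3- members alone 2 were higher and 3 lower. Leaving out 1 library gave 0 to 1 higher and 0 lower. Izumo1r turned to 0.20 without the libraries labelled heart TIL and liver TIL and to 0.39 with Foxp3+ members alone, where Gzmb turned to −0.21.

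Against all T cells outside the gate that had no Cd8 UMI, 4 genes were higher and 66 lower. The higher count was 10 with DESeq2's size factors, 49 with filterByExpr, 2 with DESeq2, 1 without the replicate block and 2 without each gene's highest cell. The lower count was 21 with DESeq2, 2 without the block, 27 without each gene's highest cell and 112 from 5 cells per library. Leaving out 1 library gave 0 to 5 higher and 2 to 31 lower. Il10 was past the threshold in 7 of 8 alternatives that tested it, Tnfrsf18 in 7 of 10, and Icos and Cd28 in 5 of 10 each.

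Against Cd8+ T cells that met the condition, 1 gene was higher and 2 lower. Both counts were 0 with DESeq2, without the replicate block and without each gene's highest cell. DESeq2's size factors gave 3 higher, filterByExpr 6 higher and 1 lower, and 5 cells per library 3 higher. Leaving out 1 library gave 1 to 4 higher and 0 to 2 lower.

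Between members with and without a Foxp3 UMI, 10 genes were higher and 4 lower. The counts were 0 and 1 with no filter, 0 and 0 with DESeq2, 3 and 1 without the replicate block, and 2 and 1 without each gene's highest cell. With filterByExpr 2 were lower. Il10 turned to −0.23 with no filter, −0.54 with DESeq2 and −0.40 without its highest cell, and Maf to 0.29 with DESeq2. Leaving out either library left no test.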

Other observations

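The glucagon transcript Gcg was spread over 2 libraries. It had 124 UMIs in 70 barcodes of the library labelled heart TIL and 114 UMIs in 50 barcodes of liver PC, and 0 to 4 UMIs in each other library. The gate member with 37 Gcg UMIs was the barcode with most of them in the library labelled heart TIL.

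All 12 kidney PBMC members had a UMI of a neutrophil marker, as had all cells of the comparison populations there. The heart PBMC member held 50 S100a8 and 32 S100a9 UMIs among 1438 beside 6 Izumo1r UMIs, and the kidney PBMC member with a Foxp3 UMI held 29 of each among 536.

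Gzmb and Il10 were found together in 17 of the 19 members with an Il10 UMI, where Gzmb had a UMI in 78 of all 98 members, and Foxp3 and Il10 together in 4. Ifng, the effector cytokine of Th1 and CD8 cells, had a UMI in 23 members.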
